A study of Mus musculus with 21 samples.

Results

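MIN6m9 cells that carry Fv2E-PERK and received only a mock treatment were compared with wild-type (WT) MIN6m9 cells given a mock treatment. MIN6m9 is a subclone of a mouse insulinoma line that makes and secretes insulin. The comparison used the 4 of the 21 arrays of the series whose titles name the line and the mock treatment, 2 for Fv2E-PERK mock and 2 for WT mock. Per the labels, the vehicle for the Fv2E-PERK cells was ethanol. The sources used here do not say what the WT mock cells received, when either mock group was harvested, whether the Fv2E-PERK line is 1 clone or a pool, or which promoter drives the transgene. The Fv2E-PERK mock arrays were hybridised on one slide and the WT mock arrays on another, so slide and genotype cannot be told apart. The labels name no separate cultures for the replicates, and p-values then cover only the spread between these arrays. The series also holds Fv2E-PERK cells given 1 nM AP20187 for 6, 12, 24 or 48 h (2 arrays each), which enter the fit only for the estimate of spread, and untreated WT cells from another experiment (3 arrays), which are given as levels.

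PERK, encoded by Eif2ak3, is a kinase of the endoplasmic reticulum (ER) membrane that phosphorylates the translation factor eIF2alpha when misfolded proteins build up. That slows general translation while the transcription factor ATF4 is made, and ATF4 and its partners then induce the genes of the integrated stress response (ISR). In Fv2E-PERK the kinase domain is joined to modified FKBP domains, so that the small molecule AP20187 pairs the kinases and switches them on without ER stress. The comparison of the lines without the drug describes what the engineered cells express before AP20187 is given, relative to WT mock cells on another slide. Kinase activity without the drug was not measured on these arrays.

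RNA was measured on 1-colour Agilent arrays. A level here is the log2 of the processed spot signal minus the array's 75th percentile, and a difference is the Fv2E-PERK mock mean minus the WT mock mean with its standard error (SE, n = 2 arrays each). That percentile lay at signals of 463 and 391 on the Fv2E-PERK mock arrays and 423 and 380 on the WT mock arrays. On the Fv2E-PERK mock arrays 49.0 and 46.8% of probes were well above background, against 50.9 and 52.2% on the WT mock arrays. The replicates of either group correlated at 0.994 across 23388 entries, which are not independent of each other. Precision is limited by there being 2 arrays a group. An entry is 1 gene, or 1 identifier that has no gene symbol. Entries with an adjusted p under 0.05 in limma's test are called higher or lower.

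Both lines carried the beta cell program at high level. Ins1, an insulin gene, stood at 9.87 and 10.06 on the Fv2E-PERK mock arrays and 9.95 and 10.14 on the WT mock arrays. Ins2, the other mouse insulin gene, stood at 9.12 and 9.28 in Fv2E-PERK mock and 9.32 and 9.42 in WT mock. The groups overlapped for Ins1, and neither gene passed the test (differences -0.08 ± 0.11 and -0.17 ± 0.13, limma adjusted p = 0.657 and 0.386). Iapp, Pdx1, Nkx6-1, Mafa, Slc30a8, Neurod1 and G6pc2 were well above background on all 4 arrays, while Slc2a2, a glucose transporter, was so on none of the Fv2E-PERK mock arrays and on both WT mock arrays. Of the markers of other cells, Irx2, Hhex, Cpa1, Cela1, Prss2, Krt19, Pdgfrb, Cdh5 and Ptprc were well above background on none of the 4 arrays. Ppy and Ghrl (islet hormones), Col1a2 (collagen), Pecam1 (endothelium) and Acta1 (skeletal muscle) were so on all 4, and Cftr, a ductal channel, on both WT mock arrays and neither Fv2E-PERK mock array.

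Eif2ak3, the gene of the kinase itself, had levels of 1.80 and 1.73 in Fv2E-PERK mock and 1.73 and 2.05 in WT mock. The groups overlapped, with a difference of -0.12 ± 0.15 (limma adjusted p = 0.598). The sources used here do not say whether its probe lies in the part of PERK that the transgene carries, so the value does not check the labels. Fkbp1a, which encodes the FK506-binding protein that the drug-binding domains derive from, was lower by one probe, with a difference of -0.38 ± 0.09, and 0.19 by its other probe, which was not called.

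Across 23388 entries tested, 4679 were called, 20.0% of them, with 2159 higher in Fv2E-PERK mock (9.23%) and 2520 lower (10.8%). The rises were larger than the falls. At least 2-fold changes numbered 755 higher and 358 lower, and at least 8-fold changes 83 higher and 1 lower. Among entries with a gene symbol 1648 of 14221 were higher (11.6%) and 1218 lower (8.56%), whereas 1302 of the 2520 lower entries had no symbol. The median difference of all entries was -0.05. With the arrays scaled to their spike-in controls instead, every difference moved up by 0.12 on the log2 scale, 1414 entries were called and 75.8% of those were higher, against 46.1% in the fit used here. Small differences below are therefore relative to the array's 75th percentile.

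**Figure D1:**
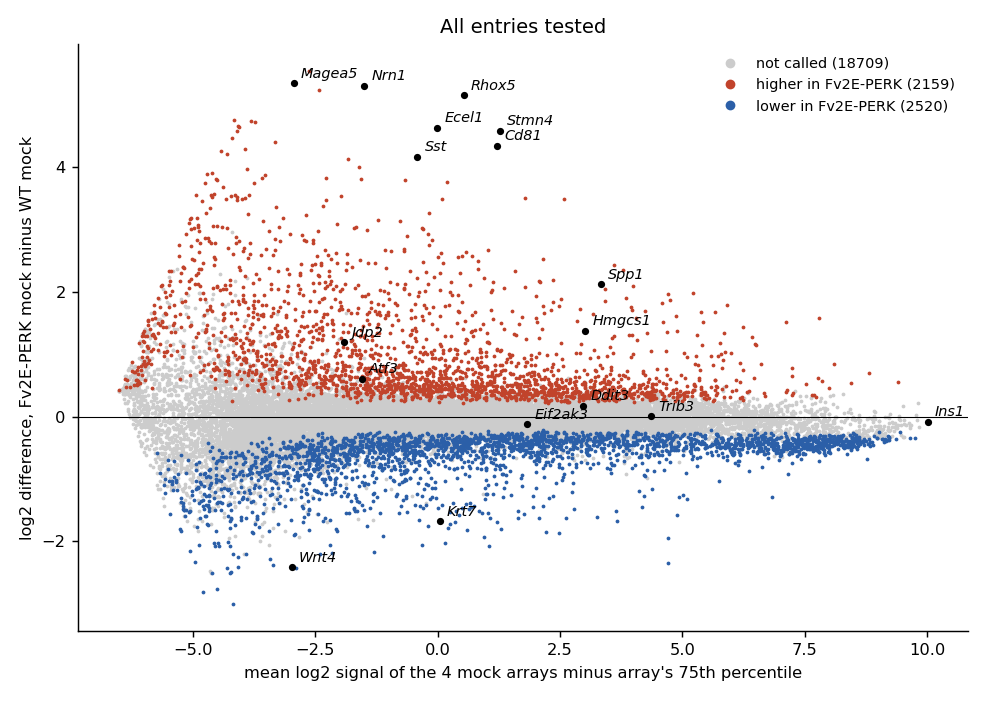
Each dot is 1 entry, with its mean level over the 4 mock arrays (log2 signal minus the array's 75th percentile) on the horizontal axis and the log2 difference, Fv2E-PERK mock minus WT mock, on the vertical axis. Red marks the 2159 entries called higher, blue the 2520 called lower and grey the rest; the rises reach beyond 5 on the log2 scale, and Trib3, Ddit3, Eif2ak3 and Ins1 lie near 0.

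The size of the calls changed with brightness. Of the 7796 brightest entries, 14.1% were lower but only 31 by at least 2-fold, and 7.58% were higher. Of the 7796 dimmest, 9.30% were higher, 445 of them at least 2-fold, and 7.79% were lower. Quantile normalization left 651 of the brightest entries lower in place of 1095, so the small falls of abundant transcripts depend on the scaling.

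The strongest rises included genes of the testis and germ line that sit on the X chromosome. Rhox5, the founding member of the reproductive homeobox cluster, had levels of 3.16 and 3.07 in Fv2E-PERK mock and -2.08 and -2.02 in WT mock. Magea1, Magea3, Magea5 and Magea8 belong to the melanoma antigen family, whose members are mostly silent outside germ cells and tumours. Sst, on an autosome, encodes somatostatin, the hormone of islet delta cells, and was also among the 15 largest rises. Promoters of Rhox5, Magea8 and Sst are shown because these genes are among the strongest rises; the sequences are from RefSeq (GRCm38.p6), 250 bases before to 50 after the start of 1 transcript. That start is the outermost annotated one for Rhox5 and Magea8, whereas the Sst gene begins 498 bases further upstream in the annotation. In Rhox5 and Magea8, capitals mark CG, the dinucleotide that carries DNA methylation in mammals. In Sst, capitals mark TGACGTCA, the cyclic AMP response element, which itself holds 1 CG.
Rhox5: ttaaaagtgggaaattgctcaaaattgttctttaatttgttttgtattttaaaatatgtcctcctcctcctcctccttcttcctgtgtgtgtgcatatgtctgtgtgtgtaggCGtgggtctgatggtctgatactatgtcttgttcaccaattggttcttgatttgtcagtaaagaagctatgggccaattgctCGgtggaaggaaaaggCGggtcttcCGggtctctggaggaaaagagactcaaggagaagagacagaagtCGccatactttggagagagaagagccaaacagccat
Magea8: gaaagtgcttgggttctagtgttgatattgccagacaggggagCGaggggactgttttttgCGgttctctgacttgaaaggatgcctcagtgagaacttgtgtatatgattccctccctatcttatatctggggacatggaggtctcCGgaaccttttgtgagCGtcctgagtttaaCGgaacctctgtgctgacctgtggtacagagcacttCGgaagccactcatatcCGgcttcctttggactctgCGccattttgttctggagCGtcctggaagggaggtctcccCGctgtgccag
Sst: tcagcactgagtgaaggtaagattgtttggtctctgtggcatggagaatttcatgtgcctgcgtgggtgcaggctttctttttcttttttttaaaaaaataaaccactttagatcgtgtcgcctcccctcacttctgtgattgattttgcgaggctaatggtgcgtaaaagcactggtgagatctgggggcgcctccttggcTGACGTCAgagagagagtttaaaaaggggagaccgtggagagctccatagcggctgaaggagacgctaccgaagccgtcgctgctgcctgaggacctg
They lie at chrX:37754358-37754657 (plus strand), chrX:154995801-154996100 (minus) and chr16:23890795-23891094 (minus). The Rhox5 window holds 5 CG and the Magea8 window 10. Windows of the other raised Mage genes, Magea1, Magea3, Magea5 and Mageb4, hold 1, 0, 0 and 11, so Magea8 does not stand for the Magea genes. Over the 27025 promoters of the RefSeq table the median is 7 CG, and 43.6% hold at most 5. The window sits at the outermost annotated start for 72.5% of these promoters and for 53.4% of those of tested genes. Among 417 promoters of genes higher by at least 2-fold the median was 10 and among 11334 promoters of tested genes 20, with no allowance for level. TGACGTCA reads the same on both strands and starts 48 bases before the transcript start used for Sst. It occurs in 1.88% of all promoters, 3.20% of those of tested genes, 3.72% of 1264 called higher, 2.88% of the 417 higher by at least 2-fold and 2.16% of 972 called lower. A match describes these letters only.

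Rhox5 differed by 5.16 ± 0.12 (limma adjusted p = 3.32e-07), a 35.8-fold higher mean, with the groups far apart. Of the 20 Rhox genes on the array, 13 were tested, 8 of them were higher and 0 lower, against 9.23% of all entries higher. The family was chosen after its values were seen, its members are near-identical in places and probes may share their signal. Rhox2e stood at 0.81 and 0.81 in Fv2E-PERK mock and -2.31 and -2.36 in WT mock. Rhox2h stood at 1.21 and 1.18 in Fv2E-PERK mock and at -1.83 on both WT mock arrays. Rhox4a, Rhox4e, Rhox4g and Rhox3f rose by less, by 0.63 to 1.31. Rhox8, expressed in both lines, had overlapping groups and a difference of -0.14 ± 0.31.

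Magea1 had levels of 0.41 and 0.39 in Fv2E-PERK mock and -3.80 and -3.42 in WT mock, a difference of 4.01 ± 0.12 (limma adjusted p = 7.46e-07). Magea5 had -0.22 and -0.31 in Fv2E-PERK mock and -5.71 and -5.51 in WT mock, which do not overlap. Magea8 had 0.24 and 0.15 in Fv2E-PERK mock and -5.77 and -4.33 in WT mock. Magea3 had -1.06 and -1.16 in Fv2E-PERK mock and -5.26 and -5.79 in WT mock. These 3 were well above background on neither WT mock array, so their folds are bounds. A bound sets the mean of the brighter group against the higher of the probe's own signal and the lowest signal well above background on each array of the dim group. Magea8 was at least 23.3-fold higher, Magea5 at least 17.6-fold and Magea3 at least 9.76-fold, and Mageb4 at least 3.44-fold. Of 20 Mage genes on the array 11 were tested, and 5 were higher and 0 lower, against 9.23 and 10.8% of all entries. This family too was chosen after its values were seen. Magea3, Magea5, Magea8 and Mageb4 entered the test only through Fv2E-PERK arrays, so a fall could hardly have been called for them. Of the 6 members well above background on all 4 mock arrays 1 was higher, Magea1, with a median of -0.03. The 6 that were not called, among them Maged1 and Maged2, which many tissues express, lay between -0.41 and 0.36, and Maged1 stood at 6.67 and 6.61 in Fv2E-PERK mock and 6.79 and 6.82 in WT mock.

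The Xlr genes, lymphocyte-regulated genes of the X chromosome with relatives in the germ line, were on the array with 8 members. All 5 that could be tested were higher, against 9.23% of all entries. This family and the Slx, Fthl17 and Ssx families were chosen after their values were seen. Xlr stood at 1.36 and 1.38 in Fv2E-PERK mock and -1.14 and -1.37 in WT mock (2.62 ± 0.12). Xlr3a, Xlr3b, Xlr4a and Xlr4b differed by 1.71 to 2.43. Slx, a spermatid gene in many copies, stood at 1.94 and 1.86 in Fv2E-PERK mock and -0.77 and -0.73 in WT mock, and Slxl1 rose as well. Fthl17d and Fthl17e, ferritin-like genes, were at least 2.11-fold and 3.06-fold higher. Fthl17f, the only one of the 3 tested that was well above background in both lines, differed by 0.32 ± 0.25 and was not called. Of 6 Ssx genes tested, Ssxb2 and Ssx9 were higher, and Ssx9 was well above background on neither WT mock array. Ssx9, Fthl17d and Fthl17e entered the test only through Fv2E-PERK arrays, so a fall could hardly have been called for them. Among genes well above background on all 4 mock arrays, 1 of 3 Ssx genes and all 4 Xlr genes were higher.

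**Figure D2:**
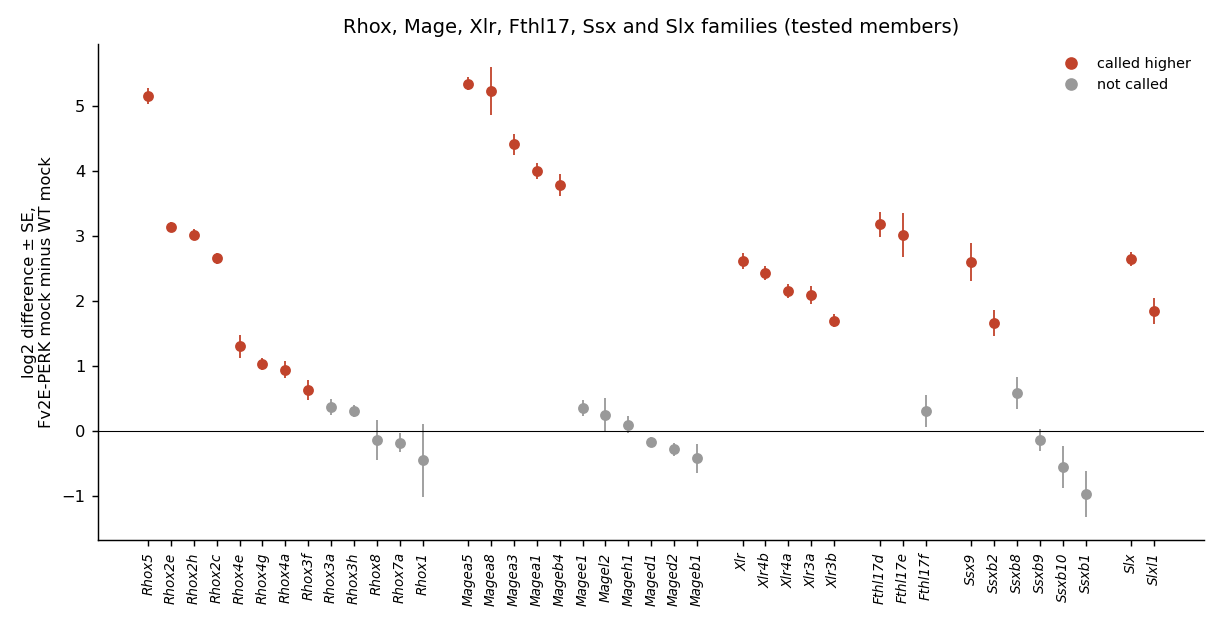
Each point is the log2 difference, Fv2E-PERK mock minus WT mock, of 1 tested family member with its standard error, grouped by family (Rhox, Mage, Xlr, Fthl17, Ssx, Slx) and sorted within it. Red points were called higher and grey points were not called; the Magea genes and Rhox5 lie above 4, all 5 Xlr genes between 1.71 and 2.62, and no point was called lower. Points of genes that are dim in WT mock are fitted values, not bounds.

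On the X chromosome 108 of 537 tested genes were higher, 20.1%, against 11.2% of 13680 autosomal genes, whose chromosomes ranged between 8.17 and 17.7%. Without these families and without predicted genes the X share was 15.5% of 464 genes, inside that range, and that of the autosomes without predicted genes 11.4%. Of the Y chromosome 3 genes were tested and called higher, but all 3 were well above background on neither WT mock array and entered the test only through Fv2E-PERK arrays. H2al2b, a histone variant gene, was well above background on none of the 4 mock arrays. Sly, a spermatid gene and relative of Slx and Xlr that was named after its value was seen, stood at -2.47 and -2.66 in Fv2E-PERK mock and -4.57 and -5.14 in WT mock, at least 3.57-fold higher. Ddx3y, Eif2s3y, Kdm5d, Uty, Usp9y and Zfy1, single-copy Y genes, and Xist, the RNA that coats the inactive X, were well above background on none of the 4 arrays.

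The other large rises included genes known from neurons, secretion and signalling. Nrn1, a neurite growth factor, stood at 1.21 and 1.1 in Fv2E-PERK mock and -4.43 and -3.88 in WT mock, a 39.7-fold difference (5.31 ± 0.18, limma adjusted p = 1.44e-06); only 1 of the WT mock arrays had it well above background. Ecel1, an endopeptidase of the nervous system, stood at 2.29 and 2.33 in Fv2E-PERK mock and -2.40 and -2.25 in WT mock (24.9-fold). Stmn4, a neuronal stathmin that binds tubulin, stood at 3.52 and 3.61 in Fv2E-PERK mock and -0.89 and -1.16 in WT mock, and both of its probes gave 4.59. All of these groups were far apart.

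Cd81, a membrane tetraspanin, stood at 3.40 and 3.37 in Fv2E-PERK mock and -1.13 and -0.80 in WT mock (20.4-fold). Gad2, which makes the transmitter GABA and is a beta cell autoantigen in human diabetes, stood at 0.24 and 0.43 in Fv2E-PERK mock and -2.99 and -3.97 in WT mock (14.1-fold). Ptgds, a prostaglandin D synthase, stood at 2.10 and 2.04 in Fv2E-PERK mock and -1.66 and -1.73 in WT mock (13.6-fold). Arrb1, beta-arrestin 1, which ends signalling of G protein-coupled receptors, was 11.3-fold higher, as was Rcn3, a calcium-binding protein of the ER. Ngfr, a neurotrophin receptor, was 11.7-fold higher, Slc45a1, a sugar transporter, 13.9-fold, and Arhgap36 and Pianp differed by 4.14 ± 0.23 and 3.83 ± 0.15. Ngfr stood at -0.25 and -0.15 in Fv2E-PERK mock and -3.71 and -3.77 in WT mock. Untreated WT cells had Ngfr at -1.66, -1.89 and -1.65 and Gad2 at -1.35, -1.51 and -1.76, between the mock groups. For Cd81, Ptgds, Arrb1, Rcn3, Slc45a1, Arhgap36 and Pianp they were nearer to WT mock. Each of these 15 largest rises kept its call under those of the 14 alternatives in which it was tested.

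Genes dim in WT mock gave further rises. Stmn2, a stathmin of growing neurons, had levels of -1.43 and -1.70 in Fv2E-PERK mock and -4.87 and -4.63 in WT mock and was at least 7.13-fold higher. Adcyap1, which encodes the neuropeptide PACAP, was at least 7.09-fold higher, Tub at least 8.14-fold, Sapcd1 at least 7.76-fold and Spn, a leukocyte sialoglycoprotein, at least 6.88-fold.

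**Figure D3:**
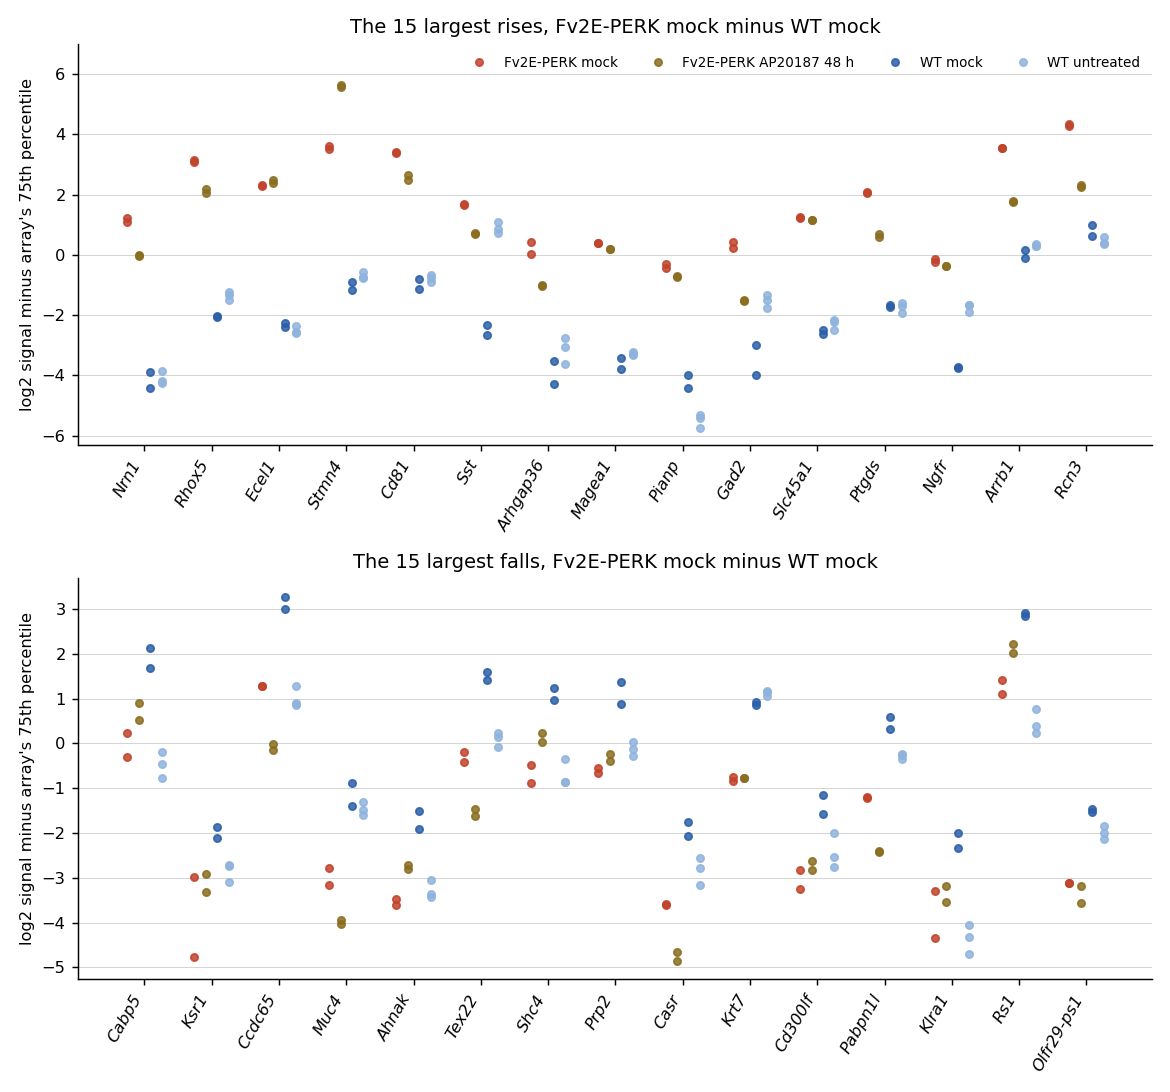
Each dot is 1 array, with its level (log2 signal minus the array's 75th percentile) on the vertical axis, for the 15 largest rises (top) and the 15 largest falls (bottom) among genes well above background on at least 1 array of both mock groups. Groups stand left to right as Fv2E-PERK mock, Fv2E-PERK with AP20187 for 48 h, WT mock and WT untreated; for Rhox5, Fv2E-PERK mock lies at 3.07 and 3.16 and WT mock at -2.08 and -2.02.

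The falls were smaller. Wnt4, a secreted signal of the islet and other epithelia, had levels of -4.36 and -4.01 in Fv2E-PERK mock and -1.51 and -2.03 in WT mock and was at least 4.88-fold lower (limma adjusted p = 6.84e-05). Gatm, which makes the creatine precursor guanidinoacetate, was at least 3.41-fold lower, Tmem190 at least 3.45-fold and Tifa, an adaptor in NF-kB signalling, at least 3.20-fold. Krt7 and Krt18 are keratins of simple epithelia. Krt7 stood at -0.74 and -0.85 in Fv2E-PERK mock and 0.93 and 0.85 in WT mock, a difference of -1.68 ± 0.10, and Krt18 was at least 2.39-fold lower.

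Cabp5, a calcium-binding protein known from the retina, gave the largest fall among called genes with a symbol that were above background in both groups without overlap, with -0.29 and 0.23 in Fv2E-PERK mock and 1.69 and 2.12 in WT mock (-1.94 ± 0.24). Ccdc65, a ciliary protein, stood at 1.29 and 1.28 in Fv2E-PERK mock and 3.27 and 3.0 in WT mock (-1.85 ± 0.12). Untreated WT cells had Cabp5 at -0.46, -0.20 and -0.76 and Ccdc65 at 1.29, 0.90 and 0.86, nearer to Fv2E-PERK mock. Casr, the calcium-sensing receptor, fell by 1.68 ± 0.16 and Muc4, a membrane mucin, by 1.83 ± 0.20. In untreated WT cells Casr stood between the mock groups, at -3.15, -2.57 and -2.77. Muc4 stood there at -1.32, -1.48 and -1.60, nearer to WT mock. The falls of Ahnak, Ksr1, Cd300lf and Shc4 rest on 1 probe each: a second probe of Ahnak was called higher, and the other probe of Ksr1, Cd300lf and Shc4 was not called.

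The 2 Fv2E-PERK arrays given AP20187 for 48 h shared a slide with WT mock, and differ from it by drug as well as line. Of the 755 rises of at least 2-fold, 514 had a 48 h mean nearer to Fv2E-PERK mock than to WT mock (68.1%), as had 255 of the 358 falls of that size (71.2%). Of the 1404 smaller rises 759 did so (54.1%), as did 1575 of the 2162 smaller falls. Rhox5 stood at 2.05 and 2.19, Ecel1 at 2.40 and 2.48 and Slc45a1 at 1.17 and 1.15 on these arrays, far above WT mock. The 48 h mean was nearer to WT mock for 241 of the 755 large rises. Among them were Stmn2 at -3.95 and -4.00, Pcdh7 at -2.80 and -3.05 and Spn at -3.29 and -3.44. The untreated WT arrays, run in another experiment, were nearer to WT mock for 611 of the 755 large rises, and nearer to Fv2E-PERK mock for 144 (19.1%). For the falls of at least 2-fold they were nearer to Fv2E-PERK mock in 201 of 358 (56.1%), and for the smaller falls in 1376 of 2162 (63.6%). For the rises under 2-fold they were nearer to Fv2E-PERK mock in 799 of 1404 (56.9%). Thus the untreated WT arrays were on the WT mock side for most large rises, and on the Fv2E-PERK mock side for most small rises and most falls of either size. Whether the experiment, slide, harvest or passage moves these levels was not tested.

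Of 24 ISR targets tested, 3 were higher and 4 lower, which makes 29.2% called against 20.0% of all entries, with a median of -0.01 against -0.05 over all entries. The 4 lower calls numbered 1 under spike-in scaling, with the 4 mock arrays alone and without Fv2E-PERK mock replicate 2. Trib3, a pseudokinase induced through ATF4, stood at 4.26 and 4.48 in Fv2E-PERK mock and 4.21 and 4.51 in WT mock, and the difference was 0.01 ± 0.12 (limma adjusted p = 0.960). With AP20187 for 6 h it stood at 7.11 and 6.93. Chac1, a glutathione-degrading enzyme, stood at 4.03 and 4.12 in Fv2E-PERK mock and 3.90 and 4.22 in WT mock (0.01 ± 0.11). Atf4 differed by 0.01 ± 0.12, Ddit3, which encodes the factor CHOP, by 0.18 ± 0.08 and Ppp1r15a, the eIF2alpha phosphatase subunit GADD34, by -0.20 ± 0.08. These 5 did not pass the test, and Ddit3 was slightly above and Ppp1r15a slightly below WT mock on both Fv2E-PERK mock arrays.

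The 7 ISR genes that differed were 4 of low level and 3 of high level. Atf3, a stress-induced transcription factor, stood at -1.18 and -1.30 in Fv2E-PERK mock and -1.92 and -1.78 in WT mock (0.61 ± 0.08, limma adjusted p = 0.00131), and at 4.33 on both 6 h arrays. Jdp2, a relative of Atf3, stood at -1.25 and -1.37 in Fv2E-PERK mock and -2.61 and -2.40 in WT mock (1.20 ± 0.12). Fgf21, a stress hormone, was called higher but was well above background on none of the 4 arrays. Stc2, a secreted glycoprotein, was at least 1.21-fold lower. Nupr1, Ndrg1 and Atf5, all among the 7796 brightest entries, were lower by 0.37 to 0.59 on the log2 scale. The calls of Atf3, Fgf21, Nupr1, Ndrg1 and Atf5 were each lost under at least 1 alternative.

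**Figure D4:**
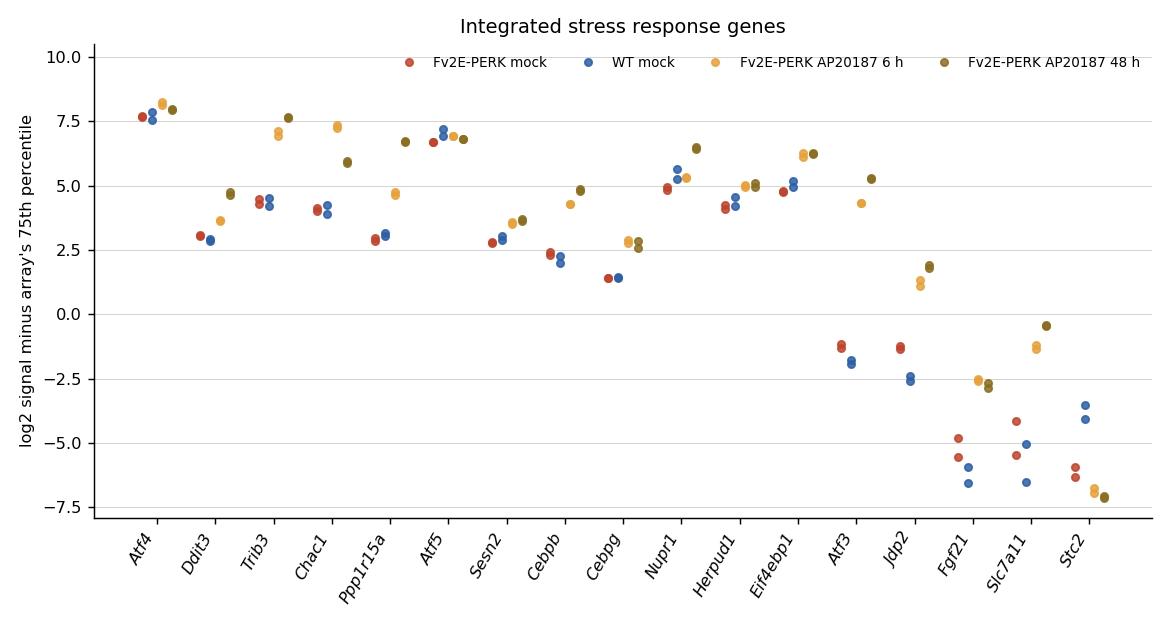
Each dot is 1 array, with its level (log2 signal minus the array's 75th percentile) on the vertical axis, for 17 of the 24 ISR targets. Groups stand left to right as Fv2E-PERK mock, WT mock and Fv2E-PERK with AP20187 for 6 h and 48 h; the mock groups lie together for Atf4, Trib3 and Chac1, with Trib3 at 4.26 and 4.48 in Fv2E-PERK mock and 4.21 and 4.51 in WT mock.

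Neighbouring parts of the stress response were called in 5 to 19.2% of members, against 20.0% of all entries. Of 22 genes of amino acid synthesis and transport 2 were higher and 1 lower, and Asns, asparagine synthetase, differed by -0.04 ± 0.12. Of 20 cytosolic aminoacyl-tRNA synthetases 1 was lower (Qars, -0.45 ± 0.07) and 0 higher. Of 15 eIF2alpha kinases and subunits of eIF2 and eIF2B, 1 was higher and 1 lower. Of 26 ER chaperones and folding enzymes, 5 were lower and 0 higher, against 10.8 and 9.23% of all entries, among them Derl3, P4hb, Dnajb9 and the stress sensor Atf6 at -0.33 to -0.45. Hspa5, the main ER chaperone BiP, stood at 7.78 and 7.70 in Fv2E-PERK mock and 7.55 and 7.80 in WT mock (0.07 ± 0.10). The 5 lower calls fell to 0 under spike-in scaling, with the 4 mock arrays alone and without Fv2E-PERK mock replicate 2, and to 1 without WT mock replicate 2.

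Somatostatin and glucagon transcripts were higher in Fv2E-PERK mock. Of 11 genes of other islet and gut endocrine cells tested, 4 were higher and 0 lower, against 9.23 and 10.8% of all entries. Nts, 1 of these 4, was well above background on none of the 4 mock arrays. With the 4 mock arrays alone 2 were called higher, and under spike-in scaling 3. Sst stood at 1.71 and 1.64 in Fv2E-PERK mock and -2.34 and -2.66 in WT mock, an 18.1-fold difference (4.17 ± 0.15, limma adjusted p = 1.44e-06). Untreated WT cells had Sst at 1.11, 0.74 and 0.85, above WT mock and below Fv2E-PERK mock. Gcg, which encodes glucagon, stood at 5.97 and 5.93 in Fv2E-PERK mock, 4.69 and 4.60 in WT mock and 5.95, 5.88 and 5.94 in untreated WT cells, so WT mock stood apart. Irx2, a factor of alpha cells, and Hhex, a factor of delta cells, were well above background on none of the 4 mock arrays. In bulk RNA, more cells of a type and more RNA per cell cannot be told apart.

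Of 18 beta cell transcription factors and related genes, 2 were higher and 5 lower, which makes 38.9% called against 20.0% of all entries. Foxa1, an endoderm pioneer factor, stood at 0.47 and 0.20 in Fv2E-PERK mock and -1.45 and -1.07 in WT mock (1.59 ± 0.17), and Isl1, a LIM-homeodomain factor, differed by 0.70 ± 0.11. Nkx2-2, which maintains beta cell identity, stood at 1.76 and 2.02 in Fv2E-PERK mock and 2.56 and 2.47 in WT mock (-0.62 ± 0.10). Mlxipl, the glucose-responsive factor ChREBP, fell by 0.45 ± 0.08. The 5 lower calls numbered 2 under spike-in scaling and 1 with the 4 mock arrays alone. Ucn3, a hormone of mature beta cells, was at least 2.15-fold lower and Glis3 at least 1.51-fold. Of 16 genes of insulin and prohormone processing 18.8% were called, against 20.0% of all entries. Pcsk1, a prohormone convertase, was higher by 0.61 ± 0.14. Scg5 and Slc30a8, the granule zinc transporter, were lower by 0.48 ± 0.09 and 0.42 ± 0.10. Untreated WT cells had Pcsk1 at 6.53, 6.61 and 6.46, Scg5 at 7.84, 7.81 and 7.79 and Slc30a8 at 5.88, 6.06 and 5.99. For each of these genes they were nearer to Fv2E-PERK mock than to WT mock. Of 16 genes of glucose sensing and excitability, 1 was higher and 3 were lower, among them Trpm5 and Sstr3, which makes 25% called.

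Cplx1, a complexin that holds secretory vesicles ready for release, rose most in the exocytosis list, with 1.50 and 1.42 in Fv2E-PERK mock and -1.64 and -2.0 in WT mock (9.69-fold). Of the 18 members tested 2 were higher and 1 lower, which makes 16.7% called against 20.0% of all entries. Of 11 genes that beta cells normally keep low, 2 were higher and 1 lower, which makes 27.3% called against 20.0% of all entries. Hk1, a high-affinity hexokinase, stood at 1.52 and 1.29 in Fv2E-PERK mock and 0.36 and 0.38 in WT mock. Untreated WT cells had Hk1 at 1.27, 1.29 and 1.25, nearer to Fv2E-PERK mock. Acot7, an acyl-CoA thioesterase, was higher by 1.14 ± 0.08. It stood at -1.28, -3.13 and -1.29 in untreated WT cells, nearer to WT mock.

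Of 19 nervous system and adhesion genes 9 were higher and 1 lower, against 9.23 and 10.8% of all entries, with a median of 0.28. With spike-in scaling or the 4 mock arrays alone 5 of them were called higher. Nlgn1, a synaptic adhesion protein, stood at -1.50 and -1.79 in Fv2E-PERK mock and -3.17 and -3.50 in WT mock (1.69 ± 0.15). Gap43, a growth cone protein, stood at 4.47 and 4.52 in Fv2E-PERK mock and 3.46 and 3.52 in WT mock (1.01 ± 0.07). Nrxn3 was at least 3.35-fold higher by 1 probe, while its other probe was called higher by only 0.80 on the log2 scale. Its call was lost under at least 1 alternative. Cdh1, E-cadherin, the epithelial member of the list, was lower by 0.60 ± 0.15, and Cdh2, N-cadherin, was higher by 0.56. In families chosen after their values were seen, all 4 stathmins tested were higher, 12 of 30 protocadherins were higher and 0 lower, and 3 of 5 Pnma genes were higher. Stmn2 entered the test only through Fv2E-PERK arrays, and the 3 stathmins well above background on all 4 mock arrays were higher. Under spike-in scaling 2 stathmins, 6 protocadherins and 2 Pnma genes were called higher. Pcdh7 led the protocadherins with a difference of 2.12.

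Immediate early genes, which cells switch on within minutes of a stimulus, were higher in 5 of 13 and lower in 0. Of all entries 9.23% were higher and 10.8% lower. Egr1 stood at 1.81 and 1.65 in Fv2E-PERK mock and -0.74 and -0.04 in WT mock (2.12 ± 0.21, limma adjusted p = 0.000382), and at 1.24, 1.92 and 1.41 in untreated WT cells. Fos stood at -0.31 and -0.42 in Fv2E-PERK mock and -2.11 and -1.88 in WT mock (1.63 ± 0.14). Nr4a1, an orphan nuclear receptor, differed by 1.31 ± 0.26 and Ier2 by 0.61, and Egr2 was at least 2.25-fold higher. Jun, Junb, Jund and Fosb did not pass the test.

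Sterol synthesis genes were higher in 9 of 21 and lower in 0, against 9.23 and 10.8% of all entries, with a median of 0.26. Hmgcs1, which makes the HMG-CoA used for cholesterol, stood at 3.73 and 3.68 in Fv2E-PERK mock, 2.25 and 2.40 in WT mock (1.38 ± 0.08) and 3.14, 3.29 and 3.27 in untreated WT cells. Idi1, Hsd17b7 and Nsdhl rose by 0.61 to 0.66. Of 15 fatty acid synthesis genes, 4 were higher, among them Elovl6 (0.69 ± 0.09) and Me1 (0.68 ± 0.09), and Srebf1, the lipogenic factor, was lower by 0.47 ± 0.14. Cell division genes were higher in 9 of 23 and lower in 0, against the same shares of all entries, with a median of 0.27. The rises were small: Mcm6, part of the replicative helicase, stood at 6.61 and 6.53 in Fv2E-PERK mock and 6.06 and 6.24 in WT mock, and Ccnb1, cyclin B1, differed by 0.42 ± 0.09. Under spike-in scaling 1 sterol gene and 0 cell division genes remained past the threshold, and in the fit of the 4 mock arrays alone likewise 1 and 0. Without single mock arrays, sterol counts ranged from 2 to 7 and cell division counts from 0 to 5, lowest without Fv2E-PERK mock replicate 1 for both.

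Cytosolic ribosomal protein genes were lower in 13 of 18 and higher in 0, against 10.8 and 9.23% of all entries, with a median of -0.38. Rps6 stood at 8.16 and 8.04 in Fv2E-PERK mock and 8.53 and 8.59 in WT mock (-0.46 ± 0.08), and at 7.86, 7.86 and 7.76 in untreated WT cells. The differences of all 18 lay between -0.49 and -0.30, a narrow range in the brightest part of the array. With quantile normalization the median was -0.14 and 0 were called, and under spike-in scaling it was -0.26 with 0 called. The 4 mock arrays alone also gave 0, and leaving out any single mock array gave 3 to 5, with 3 without Fv2E-PERK mock replicate 1. Of 15 glycolysis genes 4 were lower, Eno1, Pgk1, Gpi1 and Aldoa, by 0.25 to 0.41 on the log2 scale, with 0 lower after quantile normalization and 1 lower without any single mock array. Of 20 oxidative phosphorylation genes 1 was higher (Cox5a) and 0 lower. Calls either way made up 33.3% of the glycolysis list and 5% of the oxidative phosphorylation list, against 20.0% of all entries.

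**Figure D5:**
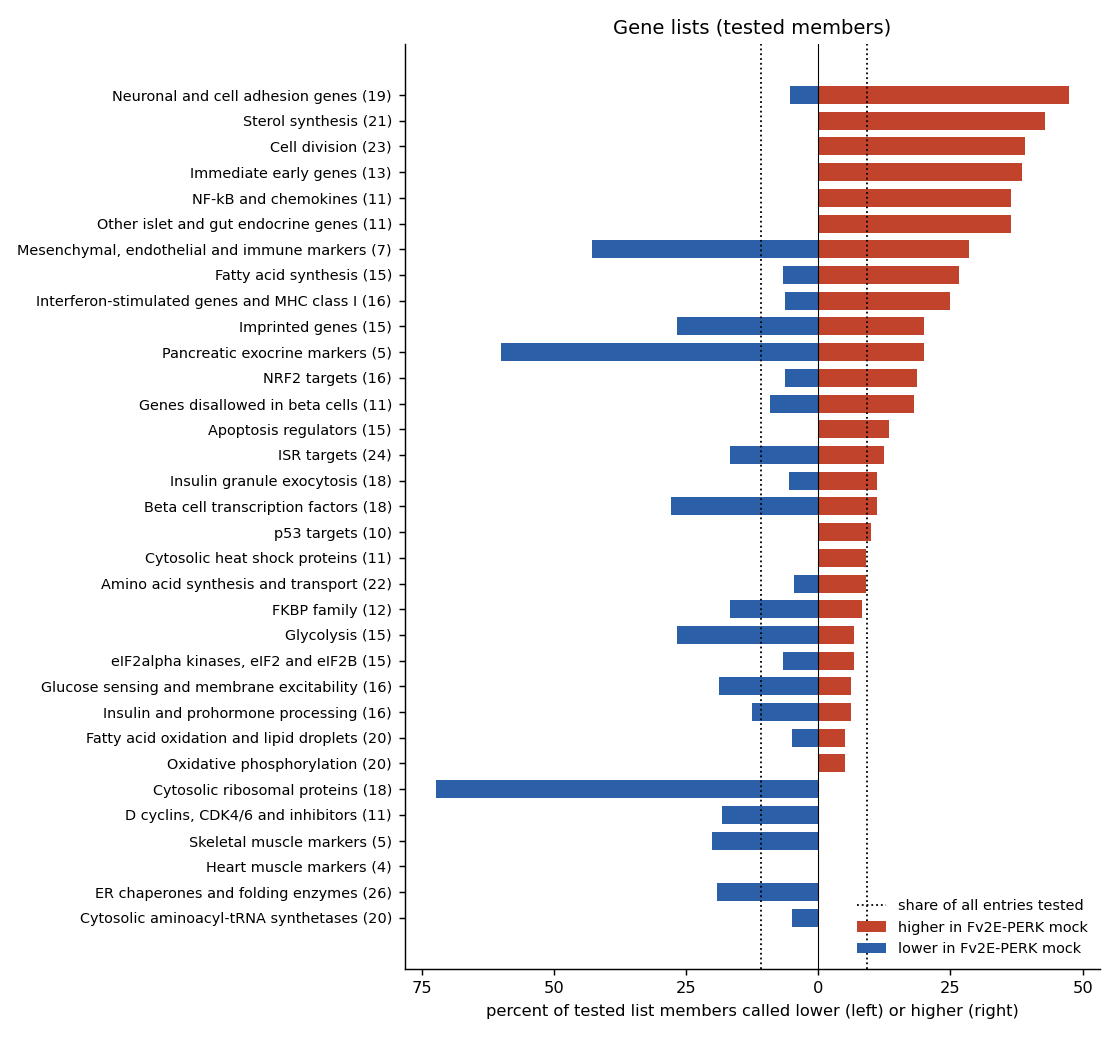
Each bar is 1 gene list, with the number of tested members in brackets; the red part to the right is the percent of members called higher in Fv2E-PERK mock and the blue part to the left the percent called lower. Dotted lines mark the shares over all entries tested, 9.23% higher and 10.8% lower; the neuronal list has 9 of 19 to the right, and the ribosomal list 13 of 18 to the left.

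Of 11 NF-kB and chemokine genes 4 were higher and 0 lower, against 9.23 and 10.8% of all entries. Relb, an NF-kB subunit, stood at 0.64 and 0.61 in Fv2E-PERK mock and -0.42 and -0.38 in WT mock (1.03 ± 0.07), Cxcl1 was at least 1.45-fold higher, and Cxcl10 and Ccl2 were well above background on none of the 4 arrays. Of 16 interferon-stimulated and MHC class I genes 4 were higher, Oas1a, Ifit2, Ifit3 and B2m, by 0.77 to 1.79, and Usp18, a brake on interferon signalling, was lower by 0.92 ± 0.11. Of 13 mesenchymal, endothelial and immune genes on the array 6 were well above background on any Fv2E-PERK mock array and 7 on any WT mock array, and Ptprc on none. Of the 7 tested, 2 were higher (Thy1, Vim) and 3 lower (Cd3e, Kdr, Acta2). The lower calls numbered 0 under spike-in scaling and without Fv2E-PERK mock replicate 1 or WT mock replicate 2, and 1 without either of the other mock arrays. Their part in the results was not tested.

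Imprinted genes, which one parental allele expresses, went both ways, with 3 of 15 higher and 4 lower. That makes 46.7% called, against 20.0% of all entries. Without any single mock array 3 were higher and 1 lower, and 1 was lower under spike-in scaling and with the 4 mock arrays alone. Snrpn, a splicing protein gene, stood at 2.01 and 1.81 in Fv2E-PERK mock and 0.42 and 0.27 in WT mock (1.56 ± 0.10), and all 3 of its probes gave 1.52 to 1.80. Plagl1, a zinc-finger factor, differed by 1.38 ± 0.13, though 1 of its other probes was called lower, and Nnat by 0.98 ± 0.15. Cdkn1c, a cell cycle inhibitor, was at least 2.17-fold lower, Ndn and Zim1 were lower, and Dlk1, at 9.06 and 9.04 in Fv2E-PERK mock and 9.37 and 9.42 in WT mock, fell by 0.35 ± 0.07. Spp1, osteopontin, stood at 4.56 and 4.24 in Fv2E-PERK mock and 1.83 and 2.71 in WT mock (4.38-fold). It is counted here with 5 tested exocrine and ductal markers, of which Krt7, Cftr and Bhlha15 were lower.

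Of heat shock, apoptosis, p53 and lipid oxidation genes 9.09 to 13.3% were called and of the antioxidant NRF2 targets 25%, against 20.0% of all entries. Of 11 cytosolic heat shock genes 1 was higher, Hspb1, a small heat shock protein, at 0.24 on both Fv2E-PERK mock arrays and -1.26 and -1.42 in WT mock (2.99-fold). Of 16 NRF2 targets 3 were higher (Me1, Pgd, Srxn1) and 1 lower (Ftl1). Of 15 apoptosis regulators 2 were higher, Bcl2, which blocks apoptosis, by 0.47 ± 0.13 and Casp9, an initiator caspase, by 0.41 ± 0.07. Of 10 p53 targets 1 was higher (Sesn1) and 0 lower. Of 20 lipid droplet and fatty acid oxidation genes 1 was higher, Plin5, a lipid droplet coat protein, at -0.74 and -0.99 in Fv2E-PERK mock and -2.30 and -1.98 in WT mock (2.42-fold), and 1 lower, Cpt2. Of 11 D cyclins, CDK4/6 and inhibitors 2 were lower, Ccnd2 and Cdkn1c, and of 12 FKBP genes 1 was higher (Fkbp7) and 2 lower (Fkbp1a, Fkbp1b). Of 4 tested heart muscle markers 0 were called, and of 5 skeletal muscle markers Acta1 was lower.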

How the data were processed

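The arrays were 1-colour Agilent expression arrays of mouse MIN6m9 RNA. Per the file headers, the authors made the spot intensity values with Agilent Feature Extraction 10.7.1.1, background-subtracted and not scaled between arrays. The deposited series matrix holds log2 values that match the log2 intensity less the array's 75th percentile and less a baseline per probe. The sources used here do not explain that baseline. With each probe centred on its own mean, the median difference per array was within 0.002, and its SD over probes was 0.009 at the largest. Each array held 3671 control spots, which were left out, and 59305 other spots. Of these 59305, the outlier spots (172 and 148 in Fv2E-PERK mock, 199 and 192 in WT mock) were left out, and 0 were saturated. The intensity was averaged per probe, put on the log2 scale and the array's 75th percentile subtracted. RefSeq accessions (GRCm38.p6) gave symbols to 26582 of 55681 probes. The brightest probe stood for each symbol or identifier (37208 entries). The 23388 tested were those well above background on both arrays of 1 or more of the 6 groups of the PERK experiment.

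limma 3.58.1 (lmFit and eBayes, R 4.3.3) was fitted to the 12 arrays of that experiment with a mean per group, with Benjamini-Hochberg adjustment across the entries. The test was checked on simulated data. Replicate numbers come from the titles (1 WT mock source name carries another number). Deviations of the replicate 1 arrays of both mock groups from their group means correlated at 0.039. The main fit used no pairing, and whether the numbers pair cultures was not settled by that value.

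Genes were named by rule: the 15 largest rises and falls among called, non-overlapping genes with symbols above background in both groups, the 8 largest bounds each way, up to 4 called members per list and direction, and 12 fixed genes. Families, further list members and Y genes were chosen after their values were seen. The comparison and the 34 lists were chosen with earlier results of these data known. Alternatives were quantile and spike-in scaling, normexp correction of the median intensity, the series matrix, other dim-probe filters, every probe, the 4 mock arrays alone, a replicate block, each mock array left out and, added after seeing the data, no 48 h arrays.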

Additional observations from a re-analysis of the deposited data

How the results depend on the processing

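The number of entries called depended on the scaling and on which arrays were fitted. Against 4679 in the fit of 12 arrays, 1414 were called with spike-in scaling and 1338 with the 4 mock arrays alone, the second with fewer arrays; for the first the cause was not tested. Leaving out 1 mock array gave 2642 to 3038 calls: 2642 without Fv2E-PERK mock replicate 1, 2765 without Fv2E-PERK mock replicate 2, 2864 without WT mock replicate 1 and 3038 without WT mock replicate 2, where the lone array is assumed to vary like the other groups. The others gave 3233 (no filter on dim probes, 37208 entries tested) to 5389 (every probe on its own). With the replicate number as a block 4495 were called, and the pairing changed 9 of 163 named results, all by loss of the call. A slide term could not be fitted.

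Of 153 named genes called, 63 kept their call under all 14 alternatives in which they were tested, 90 lost it under at least 1 and 0 reversed. The reversals were all of genes not called. Under spike-in scaling Ins1 was at 0.039 and Asns at 0.081, under quantile normalization Ins2 at 0.021 and Asns at 0.096, and under normexp Trib3 at -0.053. Leaving out 1 mock array at a time, differences ranged from -0.282 to 0.032 for Eif2ak3, -0.178 to 0.014 for Ins1, -0.159 to 0.172 for Atf4, -0.135 to 0.159 for Trib3, -0.246 to 0.166 for Asns, -0.149 to 0.173 for Chac1 and -0.058 to 0.189 for Hspa5, lowest without WT mock replicate 1 and highest without WT mock replicate 2. The cause was not tested. Of 858 list counts under alternatives, 608 stayed within 1.5 times. Signal over background limits the 200 rises from genes dim in WT mock and the 204 falls of genes dim in Fv2E-PERK mock.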
